A study of Rattus norvegicus with 6 samples.

Results

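The aminoacyl-tRNA synthetases, the enzymes that join each amino acid to its transfer RNA, were examined in Nono-KO and WT rat H9c2 cells. The members were the rows of the raw gene count table whose symbol was 1 of 35 listed genes, with an older symbol accepted for a renamed gene. Rows were found for 34 of the 35, of 16319 symbols in all: 19 genes for cytosolic enzymes and 15 for mitochondrial enzymes. Cars1, Eprs1, Gars1 and Kars1 carried their older symbols without the final digit. Mars2, the mitochondrial methionyl enzyme, and the enzymes for aspartate were not analysed here. All 34 passed the filter on low counts, as did 12028 of the 16319 symbols. The rule goes by gene name and uses no measured value, although the list was proposed with earlier results of these data known.

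The cells were H9c2, a myoblast line derived from embryonic rat heart, and poly(A) RNA was sequenced with a stranded kit. In the 3 Nono-KO libraries the Nono gene carried a homozygous CRISPR/Cas9 frameshift deletion, made with a PX459 plasmid, puromycin selection and expansion of a single cell clone. The 3 WT libraries came from H9c2 cells without that deletion; pEGFP-N1 is named as the control plasmid, but whether the WT cells of these libraries received it is not stated. Both groups grew in the same serum-containing medium with no further treatment. A single clone cannot be told apart from the deletion it carries, and since the labels do not say whether libraries of a group came from separate cultures, the p-values reflect only how far these libraries spread, and that spread may be technical.

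Total counts were 17612958, 18636637 and 18770188 in the Nono-KO libraries, against 19253858, 18138400 and 18261167 in the WT libraries. Nono itself had 109, 94 and 96 counts in Nono-KO cells, against 7329, 5884 and 5519 counts in WT cells. Values are counts scaled to the library total (CPM) after TMM scaling, and rose or fell means an adjusted p under 0.05 in edgeR's quasi-likelihood test over all 12028 genes. Among all genes tested 72.2% passed that test, 34.2% having risen and 38.1% having fallen, so a call alone sets no gene apart here. The summed CPM of 8 striated muscle markers was 470 to 508 in Nono-KO cells and 161 to 259 in WT cells. Des, Myog and Actc1 were higher, Myod1, Tnnt2 and Myh6 did not pass, and the cardiac genes Myh7 and Ryr2 were under 10 counts in every library. Tnnt2 was 13.4 CPM in WT replicate 1, the lowest WT sum, against 78.0 and 83.0 CPM in WT replicates 2 and 3. The 6 fibroblast markers summed to 24800 to 29600 CPM in Nono-KO cells and 33900 to 41500 CPM in WT cells, nearly all of it collagen, with Pdgfra, Dcn and Lum under 10 counts in every library. Of 3 endothelial markers with a row all were under 10 counts in every library, and of the leukocyte markers Cd68 and Csf1r, the summed CPM was 1.29 to 1.78 in Nono-KO cells and 3.28 to 6.47 in WT cells. The part of these shifts in the results that follow was not tested, and in RNA from bulk cultures fewer cells of a kind and less RNA per cell cannot be told apart.

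Each synthetase recognises its amino acid and the matching transfer RNAs, activates the amino acid with ATP and transfers it to the end of the RNA, which sets the accuracy of translation. Cytosol and mitochondria mostly use separate enzymes, all encoded in the nucleus, while the genes for the glycyl and lysyl enzymes, Gars1 and Kars1, serve both compartments. Several cytosolic enzymes are held together by scaffold proteins in the multi-synthetase complex. Lack of an amino acid leaves transfer RNAs uncharged, which activates the kinase Gcn2 and through it translation of the transcription factor Atf4, and several cytosolic synthetase genes are known Atf4 targets.

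The synthetases moved in both directions in Nono-KO cells, among the cytosolic and among the mitochondrial enzymes; the difference between the compartments was not tested. Of the 34 genes 12 rose, 11 fell and 11 did not pass the test. The median log2 fold change was 0.02, against -0.05 over all genes tested. Of the 19 cytosolic genes 6 rose, 9 fell and 4 did not pass, with a median of 0.00 and a range of -1.06 to 0.60. Of the 15 mitochondrial genes 6 rose, 2 fell and 7 did not pass, with a median of 0.31 and a range of -0.53 to 1.14. The number of mitochondrial genes that fell was 0 without Nono-KO replicate 1, Nono-KO replicate 2 or WT replicate 2, and 1 without WT replicate 1 or WT replicate 3. The 23 genes called compare with the 72.2% called among all genes, so the share of members called was near the background. In 23 genes the libraries of the groups did not overlap, 13 with Nono-KO above and 10 with Nono-KO below, where 75.1% of all genes tested had no overlap. At the thresholds of the study's own analysis, with adjusted p limited to 0.01 and a log2 fold change beyond 1 in either direction, 29.5% of all genes passed in edgeR, but of the synthetases only Lars1 (lower), Cars2 (higher) and Vars2 (higher).

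**Figure D1:**
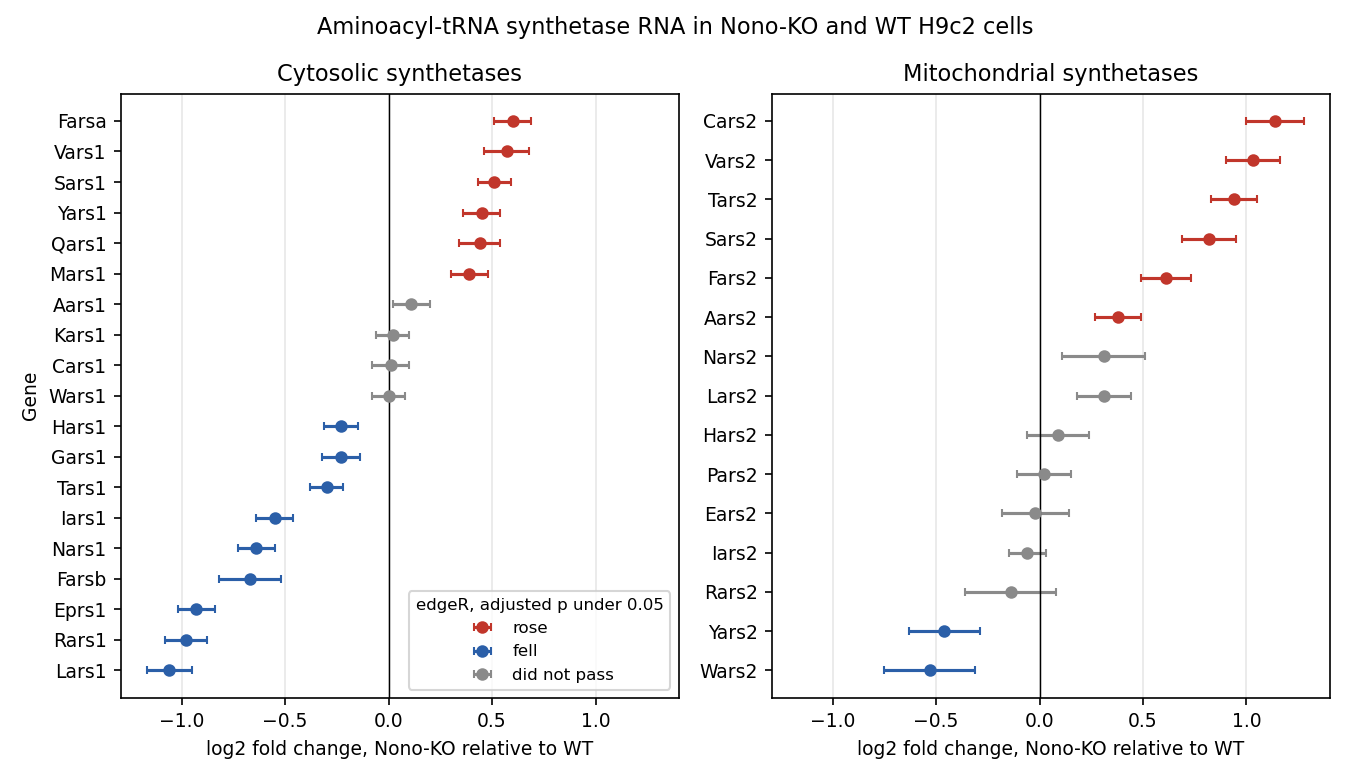
Each point is the edgeR log2 fold change of a synthetase gene, Nono-KO relative to WT, with bars of 1 standard error (3 libraries per group); cytosolic enzymes are on the left and mitochondrial enzymes on the right, and colour gives the call at an adjusted p under 0.05. Cytosolic genes run from Farsa at 0.60 to Lars1 at -1.06, and mitochondrial genes from Cars2 at 1.14 to Wars2 at -0.53.

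The cytosolic genes with the largest changes were those for 3 enzymes of the multi-synthetase complex, and all 3 were lower in Nono-KO cells. Lars1, the leucyl enzyme, which also acts as a leucine sensor upstream of mTORC1, had 24.0, 21.1 and 25.8 CPM in Nono-KO libraries, against 44.0, 53.5 and 50.7 CPM in WT libraries. Every Nono-KO library was below every WT library, and the log2 fold change was -1.06 (SE 0.11, adjusted p 6.72e-06, edgeR). Rars1, the arginyl enzyme, had 51.9, 48.7 and 62.7 CPM in Nono-KO libraries, against 106, 109 and 109 CPM in WT libraries. The WT libraries lay close together, the groups did not overlap, and Rars1 fell by 0.98 on the log2 scale (SE 0.10, adjusted p 5.66e-06, edgeR). Eprs1, a single protein that charges both glutamate and proline, had 139, 144 and 159 CPM in Nono-KO libraries, against 252, 303 and 286 CPM in WT libraries, a log2 fold change of -0.93 (SE 0.09, adjusted p 4.48e-06, edgeR). Iars1, the isoleucyl enzyme, also sits in the complex and had 56.7, 57.5 and 60.4 CPM in Nono-KO libraries, against 92.0, 81.2 and 83.0 CPM in WT libraries. Its groups were apart as well, with a log2 fold change of -0.55 (SE 0.09, adjusted p 0.000136, edgeR).

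The complex did not move as a unit. Of its 7 synthetases Lars1, Rars1, Eprs1 and Iars1 fell, Qars1 and Mars1 rose, and Kars1 did not pass, with a median log2 fold change of -0.55 beside 0.00 for the other 12 cytosolic genes. Qars1, the glutaminyl enzyme, had 251, 270 and 228 CPM in Nono-KO libraries and 202, 166 and 185 CPM in WT libraries, a log2 fold change of 0.44 (SE 0.10, adjusted p 0.00165, edgeR). Mars1, the methionyl enzyme, had 191, 212 and 201 CPM in Nono-KO libraries and 172, 141 and 148 CPM in WT libraries, a log2 fold change of 0.39 (SE 0.09, adjusted p 0.00267, edgeR). Both genes had higher values in every Nono-KO library than in any WT library. Kars1, the lysyl enzyme of both compartments, averaged 178 ± 10.9 CPM in Nono-KO cells and 175 ± 4.22 CPM in WT cells (SD, n = 3 each).

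The scaffold genes of the complex differed among themselves too. Eef1e1, which encodes the scaffold protein also known as AIMP3, had 285, 248 and 397 counts in Nono-KO libraries, against 688, 825 and 670 counts in WT libraries, and fell by 1.17 on the log2 scale (SE 0.15, adjusted p 3.57e-05, edgeR). Aimp1 and Aimp2, the other scaffold genes, did not pass. Aimp1 averaged 50.3 ± 5.07 CPM in Nono-KO cells and 52.5 ± 1.97 CPM in WT cells, and Aimp2 196 ± 15.3 CPM in Nono-KO cells and 191 ± 20.4 CPM in WT cells (SD, n = 3 each).

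The cytosolic phenylalanyl enzyme is built of alpha and beta subunits in equal number, and the genes of the subunits moved apart. Farsa, for the alpha subunit, had 164, 163 and 146 CPM in Nono-KO libraries, against 98.9, 106 and 109 CPM in WT libraries, a log2 fold change of 0.60 (SE 0.09, adjusted p 6.62e-05, edgeR). Farsb, for the beta subunit, had 15.7, 13.7 and 18.0 CPM in Nono-KO libraries, against 20.0, 27.9 and 27.8 CPM in WT libraries, a log2 fold change of -0.67 (SE 0.15, adjusted p 0.00194, edgeR). Neither gene had overlapping groups. The log2 ratio of Farsa to Farsb, a comparison chosen after the values were seen and so given with no test, was 3.38, 3.56 and 3.02 in Nono-KO libraries, against 2.30, 1.92 and 1.96 in WT libraries. The ratio is not per transcript length, so only its difference between groups, 1.26, can be read, not which subunit RNA was more abundant.

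Among the other cytosolic genes, those for the valyl, seryl and tyrosyl enzymes rose. Vars1 had 396, 392 and 335 CPM in Nono-KO libraries, against 257, 217 and 285 CPM in WT libraries, a log2 fold change of 0.57 (SE 0.11, adjusted p 0.000584, edgeR). Sars1 had 493, 495 and 440 CPM in Nono-KO libraries, against 351, 314 and 338 CPM in WT libraries, and Yars1 had 329, 334 and 302 CPM in Nono-KO libraries, against 251, 211 and 241 CPM in WT libraries. In all 3 genes the Nono-KO libraries were the higher ones without overlap, and the log2 fold changes of Sars1 and Yars1 were 0.51 (SE 0.08, adjusted p 0.000183) and 0.45 (SE 0.09, adjusted p 0.000703, edgeR). Nars1, the asparaginyl enzyme, moved the other way, with 152, 164 and 177 CPM in Nono-KO libraries, against 266, 257 and 243 CPM in WT libraries, a log2 fold change of -0.64 (SE 0.09, adjusted p 4.25e-05, edgeR).

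Smaller decreases were found for the threonyl, glycyl and histidyl enzymes, and their calls depended on single libraries. Tars1 had 182, 189 and 200 CPM in Nono-KO libraries and 235, 231 and 235 CPM in WT libraries, with a log2 fold change of -0.30 (SE 0.08, adjusted p 0.00476, edgeR) that became -0.26 with an adjusted p of 0.0503 without Nono-KO replicate 1. Gars1 had 286, 305 and 289 CPM in Nono-KO libraries and 386, 309 and 339 CPM in WT libraries, and Hars1 had 76.2, 75.8 and 80.9 CPM in Nono-KO libraries and 89.4, 95 and 88.4 CPM in WT libraries. The log2 fold change was -0.23 in both, with adjusted p of 0.0399 for Gars1 and 0.0261 for Hars1 (edgeR). Gars1 lost its call without any library other than WT replicate 2, with adjusted p of 0.0536 to 0.158, and without WT replicate 1, its highest library, the log2 fold change was -0.15. Hars1 lost its call without Nono-KO replicate 1 (adjusted p 0.123), Nono-KO replicate 2 (0.136) or WT replicate 2 (0.0782).

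The cytosolic genes that did not pass, beside Kars1, were Aars1, Cars1 and Wars1, for the alanyl, cysteinyl and tryptophanyl enzymes. Aars1, which had the most counts of all the synthetases, had 600, 607 and 536 CPM in Nono-KO libraries and 567, 490 and 560 CPM in WT libraries. The groups overlapped, with a log2 fold change of 0.11 (SE 0.09, adjusted p 0.289, edgeR). Cars1 averaged 267 ± 14 CPM in Nono-KO cells and 265 ± 25.1 CPM in WT cells, and Wars1 136 ± 1.68 CPM in Nono-KO cells and 136 ± 9.65 CPM in WT cells (SD, n = 3 each). Summed over all 19 cytosolic genes the libraries overlapped, with 3993, 4068 and 3838 CPM in Nono-KO cells and 3996, 3658 and 3905 CPM in WT cells.

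Among the mitochondrial genes, the largest increases were in those for the cysteinyl, valyl, threonyl and seryl enzymes. Cars2 had 17.5, 18.4 and 18.0 CPM in Nono-KO libraries, against 7.86, 9.46 and 7.07 CPM in WT libraries, a log2 fold change of 1.14 (SE 0.14, adjusted p 1.88e-05, edgeR). Vars2 had 23.3, 18.1 and 20.5 CPM in Nono-KO libraries, against 10.5, 9.46 and 10.3 CPM in WT libraries, a log2 fold change of 1.03 (SE 0.13, adjusted p 3.05e-05, edgeR). Every Nono-KO library was well above every WT library in both genes. Tars2 had 75.8, 80.4 and 73.6 CPM in Nono-KO libraries, against 45.5, 34.4 and 40.2 CPM in WT libraries, a log2 fold change of 0.94 (SE 0.11, adjusted p 1.23e-05, edgeR). Sars2, which also charges the serine transfer RNAs of unusual shape found in mitochondria, had 15, 14.1 and 14.4 CPM in Nono-KO libraries, against 8.86, 7.33 and 8.35 CPM in WT libraries, a log2 fold change of 0.82 (SE 0.13, adjusted p 0.00017, edgeR).

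Fars2 and Aars2 rose by less. Fars2, a single-chain phenylalanyl enzyme unlike its cytosolic counterpart, had 21.3, 21.4 and 19.2 CPM in Nono-KO libraries, against 14.2, 12.2 and 14.1 CPM in WT libraries, a log2 fold change of 0.61 (SE 0.12, adjusted p 0.000705, edgeR). Aars2, the alanyl enzyme, known in people for mutations that cause an infantile cardiomyopathy, had 24.2, 22.3 and 22.3 CPM in Nono-KO libraries, against 17.9, 16.5 and 18.6 CPM in WT libraries, a log2 fold change of 0.38 (SE 0.11, adjusted p 0.00874, edgeR). The groups did not overlap in either gene.

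Wars2 and Yars2, for the tryptophanyl and tyrosyl enzymes, were the only mitochondrial genes that fell, and neither call was firm. Wars2 had few counts, 50, 39 and 66 in Nono-KO libraries against 90, 78 and 68 in WT libraries. Its highest Nono-KO library was 3.49 CPM and its lowest WT library 3.78 CPM, and the log2 fold change was -0.53 (SE 0.22, adjusted p 0.0462, edgeR). Yars2 had 8.01, 9.30 and 11 CPM in Nono-KO libraries, against 13.1, 15 and 10.7 CPM in WT libraries, so that WT replicate 3 lay below the highest Nono-KO library, and the log2 fold change was -0.46 (SE 0.17, adjusted p 0.0285, edgeR). Wars2 lost its call without any library other than Nono-KO replicate 3, with log2 fold changes of -0.36 to -0.60 and adjusted p of 0.0577 to 0.216; the value farthest from the full fit came without Nono-KO replicate 2. Yars2 lost its call without Nono-KO replicate 1 (adjusted p 0.125), Nono-KO replicate 2 (0.0672) or WT replicate 2 (0.106).

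The other 7 mitochondrial genes did not pass. Iars2, the isoleucyl enzyme, which had the most counts of them, had 98.6, 92.8 and 111 CPM in Nono-KO libraries and 113, 101 and 102 CPM in WT libraries, a log2 fold change of -0.06 (SE 0.09, adjusted p 0.562, edgeR). Lars2, the leucyl enzyme, had 11.9, 13.1 and 11.8 CPM in Nono-KO libraries and 10.7, 9.36 and 9.63 CPM in WT libraries. Its groups did not overlap although the gene missed the threshold, with a log2 fold change of 0.31 (SE 0.13, adjusted p 0.056, edgeR). Nars2, the asparaginyl enzyme, had the same log2 fold change of 0.31 with a larger error (SE 0.20, adjusted p 0.181). Without WT replicate 1 the log2 fold changes were 0.36 for Lars2 (adjusted p 0.0221) and 0.51 for Nars2 (adjusted p 0.019, edgeR), both past the threshold. WT replicate 1 was also the library farthest from its group over all genes, with a median absolute deviation of 0.132 on the log2 scale.

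Hars2, Pars2, Ears2 and Rars2, for histidine, proline, glutamate and arginine, had log2 fold changes between -0.14 and 0.09 with standard errors of 0.13 to 0.22. Rars2 had 40 to 67 counts in Nono-KO libraries and 58 to 66 in WT libraries, the lowest of these genes. A gene named Ears2-like, Ears2l1, for which RefSeq also gives a pseudogene symbol of Ears2, had 60, 77 and 64 counts in Nono-KO libraries and 71, 68 and 81 counts in WT libraries; how alike the sequences are was not examined, and reads of Ears2 may have been split between them. Summed over the 15 mitochondrial genes the CPM was 342.6, 335.6 and 348.9 in Nono-KO libraries, against 291.5, 258.1 and 266.6 in WT libraries, without overlap. Such a sum leans on genes with many counts. Tars2 alone averaged 76.6 CPM in Nono-KO cells and 40.0 CPM in WT cells, so the sum does not describe every gene.

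**Figure D2:**
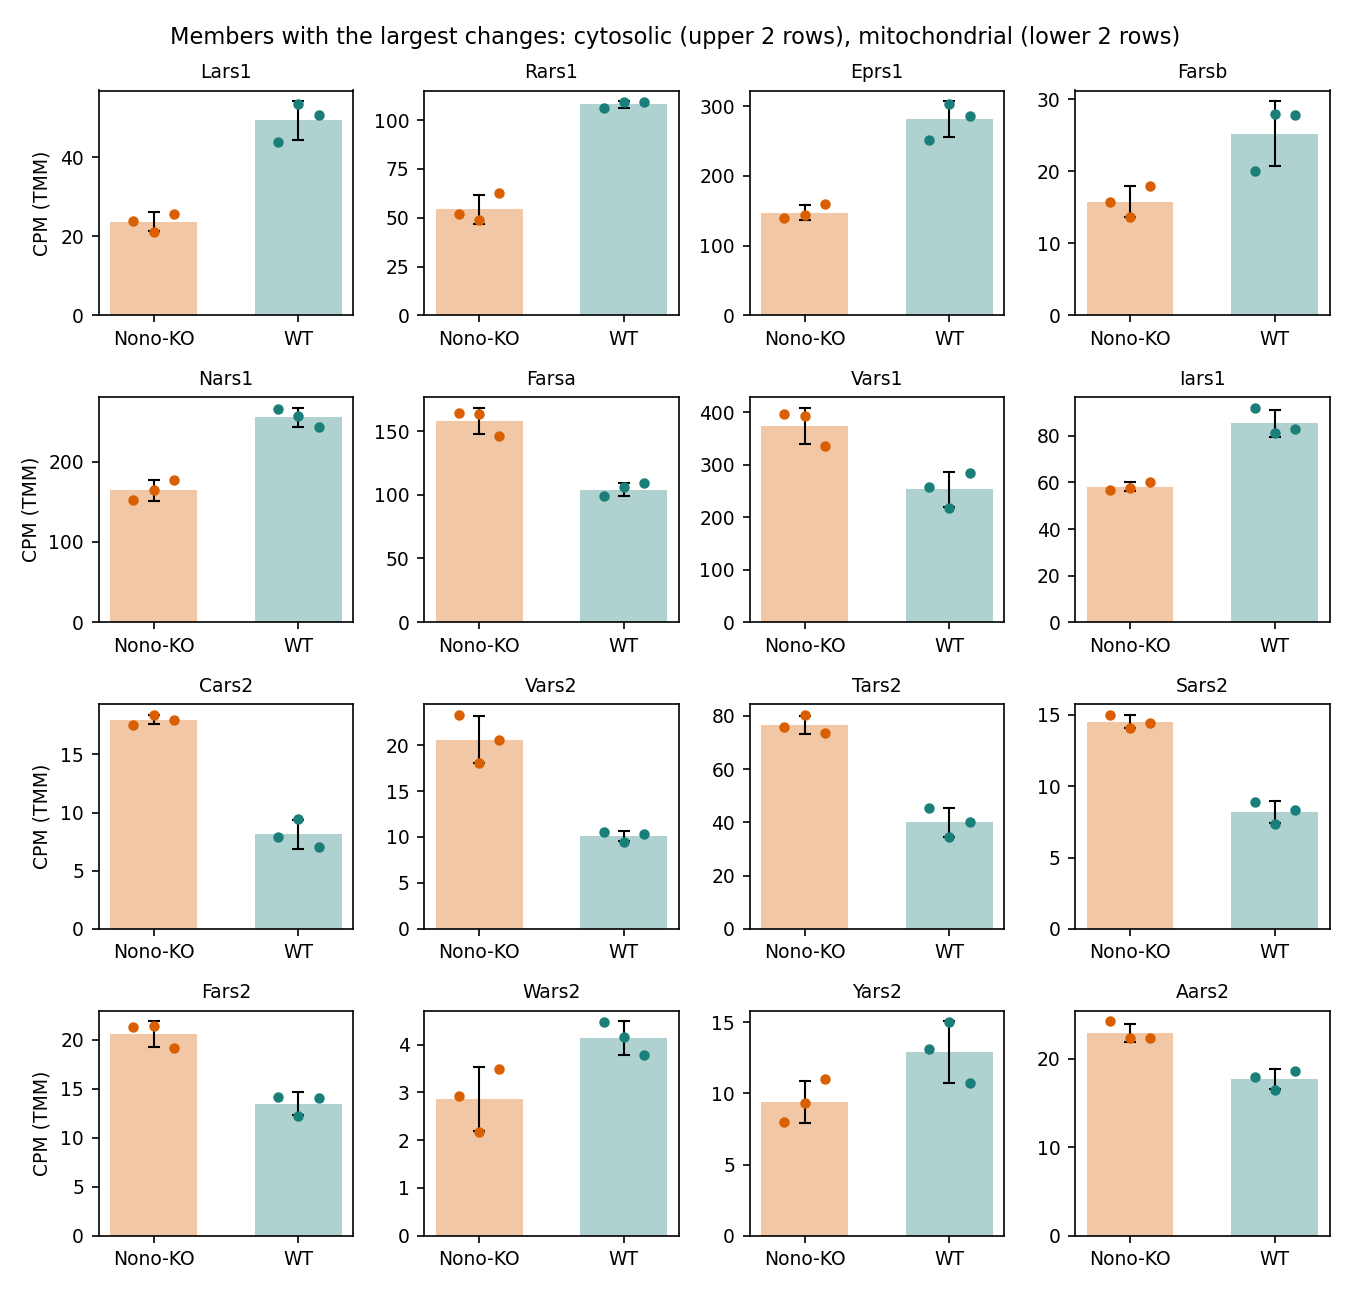
CPM after TMM scaling (vertical axes, each from 0) of the 8 cytosolic and 8 mitochondrial synthetase genes with the largest changes; points are libraries, bars means and whiskers 1 SD (n = 3 per group). Groups are apart in every panel but Yars2, where WT replicate 3 at 10.7 CPM lies below the highest Nono-KO library at 11 CPM.

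The synthetases fall into structural classes, class I and class II, that differ in the fold of the catalytic domain. Of 9 cytosolic class I genes 4 rose, 3 fell and 2 did not pass, with a median log2 fold change of 0.01, and of 9 cytosolic class II genes 2 rose, 5 fell and 2 did not pass, with a median of -0.23. Eprs1, which holds a domain of each class, is in neither count. Of 8 mitochondrial class I genes 2 rose, 2 fell and 4 did not pass, with a median of -0.04. Of 7 mitochondrial class II genes 4 rose (Tars2, Sars2, Fars2 and Aars2) and Nars2, Hars2 and Pars2 did not pass, with a median of 0.38 over the 7. Over all genes tested 72.2% were called, 34.2% having risen and 38.1% having fallen, so these counts alone set no class apart. The difference between classes was not tested.

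For 16 pairs of a cytosolic and a mitochondrial enzyme for the same amino acid, the log2 ratio of their CPM was taken within each library, in which the scaling of the library cancels. All Nono-KO ratios lay below all WT ratios in 13 pairs and above them in 2, and 1 pair overlapped. Over the ratios of every pair of genes tested 74.0% likewise had no overlap, so that separation of the groups alone sets no enzyme pair apart. That share takes either direction, so it gives no comparison for the split of 13 and 2, which was not tested. The leucyl pair differed most. Lars1/Lars2 was 1.01, 0.69 and 1.12 in Nono-KO libraries, against 2.02, 2.50 and 2.38 in WT libraries, a mean difference of -1.36. The threonyl pair Tars1/Tars2 was 1.26, 1.23 and 1.44 in Nono-KO libraries, against 2.37, 2.74 and 2.54 in WT libraries, a mean difference of -1.24. In the leucyl pair the cytosolic gene carried most of the difference, and in the threonyl pair the mitochondrial gene did.

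The cysteinyl pair Cars1/Cars2 differed by -1.13, with Cars1 at a log2 fold change of 0.01. Farsb/Fars2 differed by -1.27, while Farsa/Fars2, with the other cytosolic subunit, differed by -0.02 and overlapped, both of its genes having risen. The remaining lower pairs were the asparaginyl (-0.96), arginyl (-0.83), isoleucyl (-0.48), valyl (-0.44), histidyl (-0.32), seryl (-0.31) and alanyl (-0.27) pairs and Eprs1 against Pars2 (-0.96) and against Ears2 (-0.90). The tyrosyl pair Yars1/Yars2 differed most in the other direction, with a mean difference of 0.91. Its ratios were 5.34, 5.15 and 4.77 in Nono-KO libraries, against 4.25, 3.81 and 4.48 in WT libraries. Yars2 itself had overlapping groups, and its call depended on single libraries. The tryptophanyl pair Wars1/Wars2 differed by 0.54 in the same direction and rests on the low counts of Wars2. With 3 libraries against 3 the exact two-sided permutation test cannot go below p = 0.1, which all 15 pairs without overlap reached (0.107 after Benjamini-Hochberg adjustment over the 16), so none can pass 0.05. Eprs1 and Fars2 each enter a pair more than once, and all pairs share the same 6 libraries, so the pairs are not independent of each other.

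**Figure D3:**
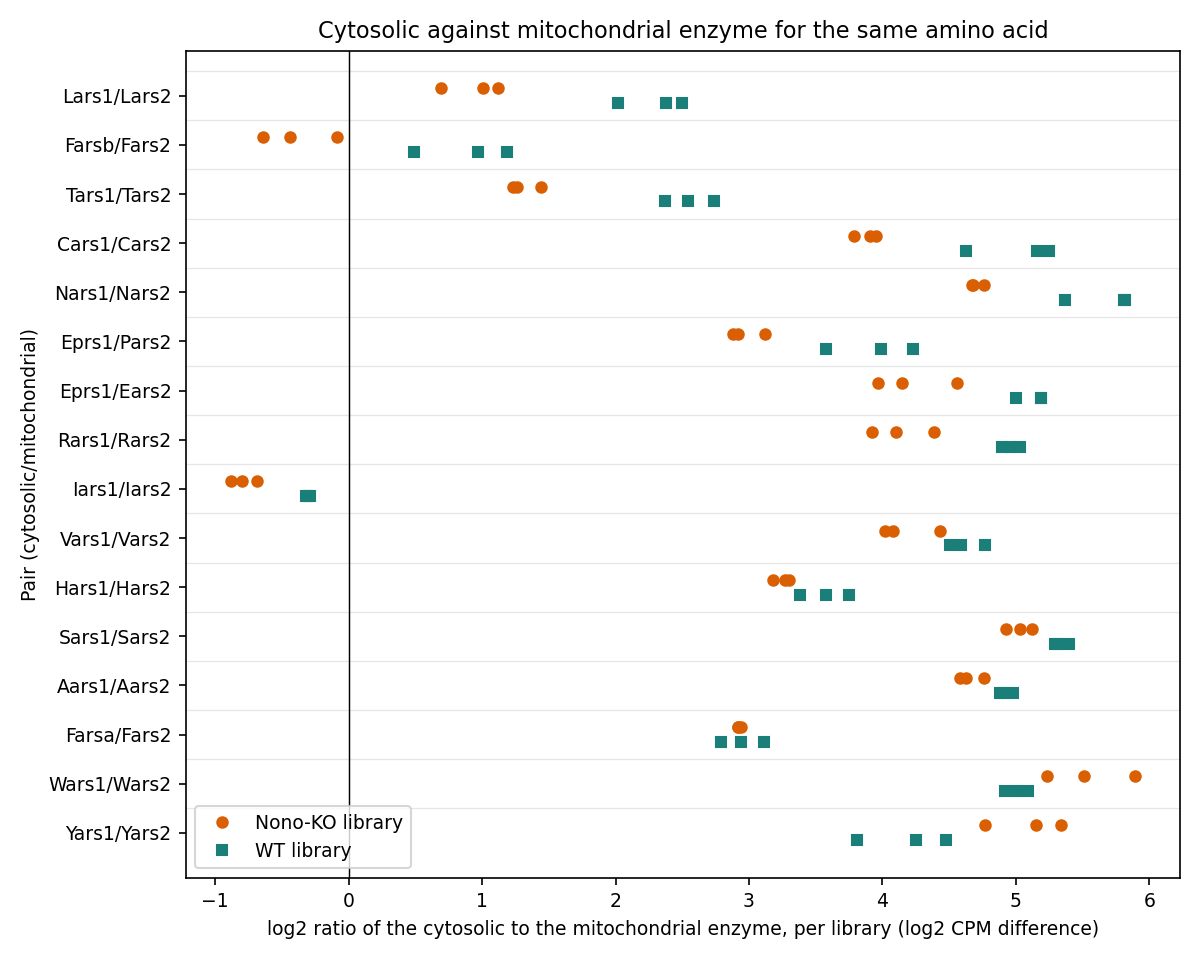
The log2 ratio of the cytosolic to the mitochondrial enzyme in each library (horizontal axis, difference of log2 CPM) for 16 pairs, with Nono-KO libraries as circles and WT libraries as squares. Nono-KO circles lie left of the WT squares in 13 pairs, overlap them for Farsa/Fars2, and lie right of them for Wars1/Wars2 and Yars1/Yars2.

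Promoter windows were examined for the amino acid response element, the sequence to which Atf4 binds with C/EBP partners. RefSeq windows of the rat assembly GRCr8, from 250 bases before to 50 after each start, were matched for 32 of the 34 genes (17 cytosolic, 15 mitochondrial); Gars1 and Rars1 had none. The core TGATGNAA was searched on both strands. It was found in 7 of 17 cytosolic windows and 0 of 15 mitochondrial windows, where 3.98% of all 33469 windows hold it. Matches of 6 of these genes are shown because they set the cytosolic genes side by side; each is read 5′ to 3′ on the strand of its gene, capitals mark the match, and TTGCATCA is the same core read from the opposite strand.
Cars1, chr1:208225334-208225363, minus strand: cggcgccgcggTTGCATCAgattctggaaa
Iars1, chr17:15193658-15193687, minus strand: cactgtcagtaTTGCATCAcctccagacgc
Mars1, chr7:65023752-65023781, minus strand: gcccgttccggTTGCATCAgcgtgggctcc
Nars1, chr18:60275778-60275807, minus strand: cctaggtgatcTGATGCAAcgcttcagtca
Tars1, chr2:62114811-62114840, minus strand: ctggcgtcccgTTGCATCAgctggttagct
Yars1, chr5:146820190-146820212, plus strand: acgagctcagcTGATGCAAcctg

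The matches shown share the form TGATGCAA. The 7 genes with the core did not share a direction: Mars1 and Yars1 rose, Iars1, Nars1 and Tars1 fell, and Aars1 and Cars1 did not pass. A match describes the letters in a window and is neither a shown binding site nor a cause. The shares given over all windows were neither limited to the genes tested here nor matched for base content. The E-box CACGTG was found in 5 of 17 cytosolic windows (Aars1, Farsb, Iars1, Tars1 and Vars1) and 1 of 15 mitochondrial windows (Ears2), with 6.42% of all windows holding it. The core of the site of NRF-1, a regulator of nuclear genes for mitochondrial proteins, searched as GCGCANGC, was found in 5 of 17 cytosolic windows (Eprs1, Farsb, Sars1, Tars1 and Vars1) and 5 of 15 mitochondrial windows (Iars2, Pars2, Rars2, Vars2 and Wars2), with 8.98% of all windows holding it. In Farsb and Tars1 matches of these motifs stand next to each other. Of the cytosolic genes with the E-box Vars1 rose, Farsb, Iars1 and Tars1 fell and Aars1 did not pass. Of the cytosolic genes with the NRF-1 core Sars1 and Vars1 rose and Eprs1, Farsb and Tars1 fell. Of the mitochondrial genes with the NRF-1 core Vars2 rose, Wars2 fell and the other 3 did not pass.

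Hars1 and Hars2, the cytosolic and mitochondrial histidyl enzymes, lie head to head, so that their windows cover 243 bases in common. The 143 bases between the facing starts are shown because both genes have them as their upstream sequence; they are given on the strand of Hars2, with no capitals because none of the motifs was in them.
Hars1-Hars2, chr18:28672713-28672855, plus strand: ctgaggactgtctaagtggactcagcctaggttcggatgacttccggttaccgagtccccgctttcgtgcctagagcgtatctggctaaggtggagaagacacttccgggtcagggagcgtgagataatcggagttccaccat
From these facing starts Hars1 had a log2 fold change of -0.23 (SE 0.08, adjusted p 0.0261, edgeR), a call that some libraries decide, and Hars2 one of 0.09 (SE 0.15, adjusted p 0.59). Other genes also share a window with a neighbour on the opposite strand. Fars2 rose by 0.61 while its neighbour Lyrm4 had a log2 fold change of 0.00 (adjusted p 0.985, edgeR). Rars2, at -0.14, shares 178 bases with Orc3, which fell by 0.70 on the log2 scale (adjusted p 0.0337, edgeR), and Ears2, at -0.02, shares 141 bases with Ubfd1, at 0.28 (adjusted p 0.0093, edgeR). Kars1, at 0.02, shares 227 bases with Terf2ip, at -0.16, and neither gene passed (adjusted p 0.842 and 0.202, edgeR).

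The synthetases work with proteins that export, finish, proofread or further modify transfer RNAs. A list of 16 charging partners also holds the 3 scaffold genes given above and Tars3, a further threonyl enzyme. In it 8 genes rose, 4 fell and 4 did not pass, with a median log2 fold change of 0.43. Over all genes tested 72.2% were called and the median was -0.05, so these counts alone do not set the list apart. Sepsecs, which makes selenocysteine on its transfer RNA after serine has been attached, had 48, 40 and 48 counts in Nono-KO libraries, against 176, 185 and 170 counts in WT libraries, and fell by 1.89 on the log2 scale (SE 0.18, adjusted p 2.4e-06, edgeR). Pstk, the kinase that acts just before Sepsecs, rose, with 92, 108 and 100 counts in Nono-KO libraries against 62, 65 and 50 counts in WT libraries (log2 fold change 0.83, SE 0.18, adjusted p 0.00153, edgeR). Adjacent steps of the same pathway thus moved apart. Trnt1, which adds the CCA end that synthetases charge, had 40, 50 and 55 counts in Nono-KO libraries, against 109, 175 and 134 counts in WT libraries, a log2 fold change of -1.46 (SE 0.23, adjusted p 0.000126, edgeR). Xpot, the exporter of transfer RNAs from the nucleus, averaged 54.0 ± 5.79 CPM in Nono-KO cells and 107 ± 3.14 CPM in WT cells (SD, n = 3 each), a log2 fold change of -0.98 (SE 0.10, adjusted p 3.56e-06, edgeR).

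Mitochondria make glutaminyl transfer RNA indirectly: the glutamyl enzyme Ears2 charges it with glutamate and an amidotransferase of 3 subunits converts the product. The genes of all 3 subunits rose, where 34.2% of all genes tested rose, and whether they moved together was not tested. Gatc had 1123, 1197 and 1129 counts in Nono-KO libraries, against 605, 574 and 531 counts in WT libraries (log2 fold change 1.09, SE 0.09, adjusted p 9.73e-07, edgeR). Gatb averaged 19.5 ± 0.793 CPM in Nono-KO cells and 13.1 ± 2.18 CPM in WT cells (log2 fold change 0.58, adjusted p 0.0026), and Qrsl1 6.83 ± 0.514 CPM in Nono-KO cells and 4.41 ± 0.219 CPM in WT cells (SD, n = 3 each; log2 fold change 0.63, adjusted p 0.00462, edgeR). Ears2, which acts before them, had a log2 fold change of -0.02. Mtfmt, which formylates the initiator methionyl transfer RNA of mitochondria, rose by 0.48 on the log2 scale (SE 0.13, adjusted p 0.00544, edgeR). Of the 4 genes of the list for proteins that clear mischarged transfer RNAs or hold a domain for it, Dtd1 (0.50), Dtd2 (0.74) and Aarsd1 (0.70) rose and Prorsd1 did not pass (log2 fold change 0.39, SE 0.25, adjusted p 0.184, edgeR). The same 34.2% over all genes stands beside these genes.

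The elongation factors, which carry charged transfer RNAs to the ribosome or move it along, also split. Of 7 cytosolic factors tested 4 rose, 2 fell and 1 did not pass, where 72.2% of all genes tested were called. Eef1a1, the carrier of charged transfer RNAs, averaged 3470 ± 255 CPM in Nono-KO cells and 5410 ± 175 CPM in WT cells, a log2 fold change of -0.64 (SE 0.08, adjusted p 1.84e-05, edgeR). Eef1g, a subunit of its exchange factor, averaged 4240 ± 272 CPM in Nono-KO cells and 2780 ± 184 CPM in WT cells, a log2 fold change of 0.61 (SE 0.08, adjusted p 3.96e-05, edgeR). Eef2, the translocase, and Eif5a rose by 0.49 and 0.51, and Eif5a2, the close relative of Eif5a, fell by 1.58 on the log2 scale, from low counts. Of 11 mitochondrial translation factors 3 rose (Tufm, Tsfm and Mrpl58, by 0.36 to 0.50), 3 fell (Guf1 at -0.70, Gfm1 at -0.49 and Mtif2 at -0.72) and 5 did not pass, with a median of 0.03. The same 72.2% over all genes stands beside these counts.

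Of the 37 genes listed for the amino acid response, in which Gcn2 and Atf4 act, 35 were tested. Of these 15 rose, 11 fell and 9 did not pass, with a median log2 fold change of 0.17. With 72.2% of all genes tested called, the number called in this list does not set it apart. Atf4, named after its values were seen, averaged 406 ± 6.11 CPM in Nono-KO cells and 398 ± 22.4 CPM in WT cells, with a log2 fold change of 0.03 (SE 0.08, adjusted p 0.732, edgeR), and since Atf4 is controlled largely in translation its RNA does not measure its activity. Trib3, a pseudokinase induced by Atf4, averaged 127 ± 17.5 CPM in Nono-KO cells and 38.2 ± 2.57 CPM in WT cells, a log2 fold change of 1.73 (SE 0.11, adjusted p 2.11e-07, edgeR). Sesn2, a leucine sensor that restrains mTORC1, averaged 208 ± 11.9 CPM in Nono-KO cells and 73.3 ± 6.70 CPM in WT cells, a log2 fold change of 1.5 (SE 0.09, adjusted p 1.65e-07, edgeR). Atf5, a relative of Atf4, averaged 802 ± 30.2 CPM in Nono-KO cells and 386 ± 52.2 CPM in WT cells, a log2 fold change of 1.06. Among the genes of the list that fell, those with the largest changes encode transporters. Slc7a1, which imports arginine and lysine, averaged 170 ± 5.24 CPM in Nono-KO cells and 409 ± 70.3 CPM in WT cells (log2 fold change -1.26, SE 0.11, adjusted p 1.83e-06, edgeR), and Slc38a2, which imports small neutral amino acids, 177 ± 12.7 CPM in Nono-KO cells and 381 ± 32.1 CPM in WT cells (SD, n = 3 each; log2 fold change -1.11, SE 0.09, adjusted p 1.13e-06, edgeR). Of the other transporter genes tested Slc7a11, Slc1a4 and Slc1a5 fell, Slc3a2 rose by 0.28 on the log2 scale (adjusted p 0.0128, edgeR) and Slc7a5 did not pass, at -0.23 (adjusted p 0.0632). Asns, a much-used Atf4 target gene for asparagine synthetase, fell by 0.37 on the log2 scale (SE 0.08, adjusted p 0.00151, edgeR). The largest changes of the list were increases of Fgf21 (log2 fold change 3.41) and Gdf15 (3.20), both from low counts. Eif4ebp1, Chac1, Pycr1, Phgdh, Cebpb, Ddit3, Nupr1, Shmt2 and Stc2 also rose, with log2 fold changes of 0.38 to 1.01. Eif2ak4, Psat1, Vldlr, Got1 and Cth also fell, with log2 fold changes of -0.32 to -0.89.

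**Figure D4:**
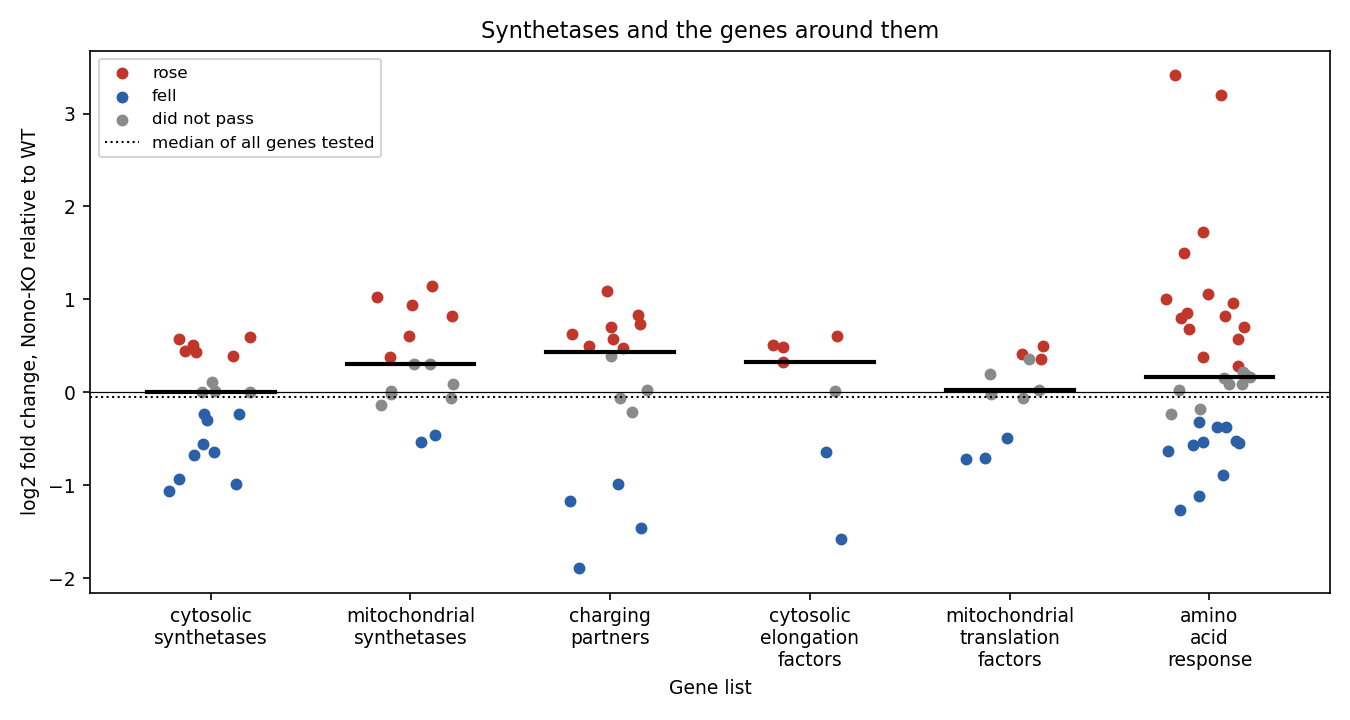
Log2 fold changes (vertical axis, Nono-KO relative to WT, edgeR) of every tested gene of the cytosolic and mitochondrial synthetases and of the 4 lists around them; the spread of points across a column has no meaning, thick bars are list medians and the dotted line is the median of all genes tested, -0.05. Every list holds genes that rose and genes that fell, and list medians run from 0.00 for the cytosolic synthetases to 0.43 for the charging partners.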

How the data were processed

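Poly(A) RNA of Nono-KO and WT H9c2 cells was sequenced (TruSeq stranded mRNA, 3 libraries each), and the authors deposited raw counts per gene symbol, one table for the series and a file per library that held the same values. Per the submitters' processing notes the tools were HTSeq, HISAT2 and Trimmomatic, without versions, on mRatBN7.2, while the methods of the study name Bowtie2 and Rn6 and a DESeq2 test; the annotation, like any use of strand in counting, was not given in the sources used here, so reads of overlapping genes or near copies could be lost or shared.

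Counts were tested with edgeR 4.0.16 in R 4.3.3 (filterByExpr, TMM, robust quasi-likelihood fit, genotype only, Benjamini-Hochberg over 12028 genes; 4291 symbols did not pass the filter). Standard errors were derived from the F statistic (size of the log2 fold change over the root of F). CPM use TMM-scaled totals, and ratios use log2 CPM with a prior count of 2. Library totals were 17612958 to 19253858. The edgeR step was first tested on simulated data. Far fewer genes were changed in them than were called here, so that test does not cover changes this widespread. No libraries were copies of the same reads, since counts within a group differed by more than sampling noise. Nono-KO replicates 1 and 2 were the closest, with a chi-square per degree of freedom of 2.6. The other pairs within a group had 8.66 to 24.4. These values do not tell whether libraries came from separate cultures.

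Members, lists and tests were chosen with earlier results of these data known. All listed members are named; values per library are given for up to 8 genes per compartment with the largest absolute log2 fold change among those called and for the gene with most counts, and for other members where useful; of each other list up to 5 genes with the largest change are named, provided 1 group averaged 5 CPM or more, and any further gene was picked after its values were seen. Lists are described by counts and medians with no set test. Alternatives were DESeq2 1.42.0, its size factors, total counts, no filter or at least 10 counts in every library, a replicate block, each library left out and the thresholds of the study. Motifs were searched on both strands of RefSeq GRCr8 windows. That assembly is not the build of the counts, so genes were matched by symbol only. The matched sequence of Aars1 is not reported here.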

Additional observations from a re-analysis of the deposited data

How the results depend on the processing

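Of 23 synthetases called, 18 kept their call and direction under all 12 other settings at an adjusted p under 0.05, and none reversed. Gars1, Hars1, Tars1, Wars2 and Yars2 lost their call under at least 1 setting, and Lars2 and Nars2 passed under at least 1. The mitochondrial genes that fell numbered 2 in edgeR with TMM and 1 under DESeq2, DESeq2 size factors, a filter of at least 10 counts in every library, or the replicate block. With each library left out they numbered 0 to 2, those that rose 6 to 8, and the cytosolic genes 6 risen throughout and 6 to 8 fallen. Over all genes 3766 to 4366 rose and 4105 to 4761 fell with a library left out. The pair ratios were lower in 13 to 14 pairs and higher in 2. Replicate numbers shared by both groups did not pair the libraries: deviations of same-numbered libraries correlated at 0.05, -0.16 and -0.19, and with the number as a block Gars1, Hars1 and Wars2 lost their calls, with adjusted p of 0.0887, 0.083 and 0.0559 (edgeR), while 3944 genes rose and 4443 fell over all genes.

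At the thresholds of the study, 1294 genes rose and 2252 fell. There, 0 cytosolic synthetases rose and 1 fell, 2 mitochondrial ones rose and 0 fell, 1 charging partner rose and 3 fell, 0 elongation factors rose and 1 fell, 0 mitochondrial translation factors rose and 0 fell, and 6 amino acid response genes rose and 2 fell. Scaling moved the median of all genes by 0.05 (size factors) or -0.06 (total counts). Depth limits Rars2 and Wars2, with under 100 counts in every library.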
